A study of Mus musculus with 11 samples.

Results

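Tumor necrosis factor (TNF) and its receptor family were examined through 10 genes picked by name, out of the 55350 genes listed in the pancreas or the adipose count table. All 10 were found in the 54532 genes of the pancreas table and in the 46078 genes of the adipose table. They comprised 3 ligands, Tnf, Tnfsf9 and Tnfsf10, and 7 receptors, Tnfrsf1a, Tnfrsf1b, Tnfrsf10b, Tnfrsf12a, Fas, Ltbr and Cd40. The ligands of this family are mostly trimeric membrane proteins that can be shed, and they signal by clustering their receptors on the target cell. Receptors with a death domain can start caspase activation, while the others recruit TRAF adaptors, and both kinds can switch on NF-κB and AP-1 target genes. In acute pancreatitis TNF is known as an early inflammatory mediator, and in the adipose tissue of obese mice it is known as a product of macrophages.

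The samples come from a study of the herbal decoction CQCQD in a mouse model of obesity-related alcohol-induced acute pancreatitis (OA-AP). The pancreas was sequenced in 2 control samples and 3 OA-AP samples, and epididymal adipose tissue in 3 samples of each group. All were male wild type mice, C57BL/6 by their labels and C57BL/6J in the paper's methods, with a labelled age of 16 weeks. For 12 weeks their chow had supplied 10 kcal% of fat to the control group and 60 kcal% to the OA-AP group. Controls then received 2 intraperitoneal injections of saline, and OA-AP mice 2 of ethanol at 2 g/kg, given 1 h apart, and tissues were collected 12 h from the first injection. The groups therefore differed in diet, ethanol and pancreatitis at once, which cannot be told apart, and no samples of CQCQD-treated mice were analysed here. The labels number the samples within each group but do not say that each came from a separate animal, so the p-values measure the spread between these samples.

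The pancreas libraries held 14716716 and 14380578 counts in the control group and 14465769, 14188832 and 17238919 in the OA-AP group. The adipose libraries held 25840279, 22576100 and 27928097 counts in the control group and 20825177, 21404197 and 20911383 in the OA-AP group. Levels are given as CPM, the counts scaled to a common library size with TMM factors, and as CPM per kb of the deposited gene length where genes are compared with each other. Differentially expressed genes (DEGs) were those with an adjusted p under 0.05 (edgeR quasi-likelihood test, Benjamini-Hochberg) and a change of 1.5-fold or more.

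The labelled tissues carried their own markers. In the pancreas the 7 acinar markers, led by Ctrb1, summed to 518607 and 609503 CPM in the control libraries and to 230369, 254811 and 301126 CPM in the OA-AP libraries. Each of the 7 was lower in OA-AP, and 6 were DEGs. In adipose tissue the 5 adipocyte markers, led by Fabp4, summed to between 24227.5 and 28301 CPM in the 6 libraries. Among them Lep was at 485, 447 and 232 CPM in the control group and at 787, 4082 and 1194 CPM in OA-AP, by far the highest in replicate 2, and Plin1 at 1658.5, 1471 and 1478 CPM against 609, 368 and 683 CPM. Adipose control replicate 2 stood apart, with an acinar sum of 4441 CPM against 7.18 to 15.5 CPM in the other adipose libraries and a lymphocyte marker sum of 36.8 CPM against 7.38 and 11.1 CPM in the other controls. Pancreas OA-AP replicate 3 also stood apart, with a sum of the 6 neutrophil markers, led by S100a9, of 97.3 CPM against 12.4 and 3.38 CPM in the other OA-AP libraries. Results are therefore also given without these libraries where the calls changed. In such bulk RNA, fewer cells of a type and less RNA per cell cannot be told apart.

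In the pancreas of OA-AP mice the receptors Tnfrsf12a, Tnfrsf10b, Tnfrsf1a and Ltbr rose, and the ligand Tnfsf10 fell. Of the 10 members, 5 were DEGs, 4 higher and 1 lower, while 29.8% of the 12884 tested pancreas genes were DEGs, 16.2% higher and 13.5% lower. A further 2 members, Tnfrsf1b and Fas, were tested and not called, and Tnf, Tnfsf9 and Cd40 did not pass the filter on low counts. Tnfrsf10b, with 5 and 9 control counts, passed that filter through its OA-AP libraries, so the count among the 7 tested members is not a measure of the whole family. The median log2 fold change of these 7 was 1.03, against 0.04 over all tested genes.

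Tnf, the founding ligand of the family, had 0 and 1 counts in the control pancreas libraries and 1, 0 and 1 counts in the OA-AP libraries. No library held more than 1 count, so a difference in Tnf was not detectable in the pancreas at this depth. Tnfsf9, the ligand of the costimulatory receptor 4-1BB, had 0 and 1 counts in the controls, against 9, 4 and 14 in OA-AP. Each OA-AP library lay above both controls, with a ratio of summed counts of 10.5 after scaling and a 95% exact interval of 1.73 to 431 that covers counting error only. Without control replicate 1 the ratio was 4.87 with an interval of 0.802 to 199, and without control replicate 2 no control count was left. Tnfsf10, which encodes TRAIL, the ligand of the death receptor encoded by Tnfrsf10b, was at 9.95 and 8.08 CPM in the control libraries and at 1.21, 2.00 and 0.105 CPM in the OA-AP libraries. Both controls lay above all OA-AP libraries, and OA-AP replicate 3 was the lowest, with 2 counts. The log2 fold change of Tnfsf10 was −3.04 (standard error (SE) 0.74, adjusted p = 0.0225 by edgeR with Benjamini-Hochberg adjustment), and −3.77 without OA-AP replicate 2.

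Tnfrsf1a, which encodes TNF receptor 1, the death domain receptor of TNF found on most cell types, stood at 16.8 and 17.3 CPM in the control libraries and at 57.4, 48.3 and 91.8 CPM in the OA-AP libraries. The groups did not overlap, and OA-AP replicate 3 was the highest. Its log2 fold change was 1.95 (SE 0.29, edgeR adjusted p = 0.0025), the smallest p-value of a member in the pancreas. Tnfrsf1b, which encodes TNF receptor 2 and lacks a death domain, was at 2.57 and 2.49 CPM in the control libraries and at 2.73, 2.52 and 3.24 CPM in the OA-AP libraries. These values overlapped, and Tnfrsf1b was the 1 tested member of 7 whose groups did so, where 62.3% of all tested pancreas genes had groups without overlap. The log2 fold change of Tnfrsf1b was 0.16 (SE 0.30, edgeR adjusted p = 0.712).

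Tnfrsf12a, which encodes Fn14, the receptor of the ligand TWEAK, was at 1.46 and 1.79 CPM in the control libraries and at 16.3, 15.1 and 38.3 CPM in the OA-AP libraries. Every OA-AP library was far above both controls, and replicate 3 was again the highest. This was the largest log2 fold change among the tested members, 3.84 (SE 0.59, edgeR adjusted p = 0.00473), and it was 3.23 without replicate 3. Tnfrsf10b, the mouse TRAIL receptor and a known p53 target, was at 0.429 and 0.897 CPM in the control libraries and at 1.79, 2.57 and 4.08 CPM in the OA-AP libraries. The groups did not overlap, and the log2 fold change was 2.09 (SE 0.55, edgeR adjusted p = 0.0212), and 2.69 without control replicate 2. Receptor and ligand of the TRAIL pair thus moved in opposite directions in the pancreas.

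Ltbr, the lymphotoxin beta receptor, which feeds the non-canonical NF-κB pathway, was at 19.0 and 22.6 CPM in the control libraries and at 37.9, 35.8 and 54.2 CPM in the OA-AP libraries. The groups were apart, with a log2 fold change of 1.03 (SE 0.21, edgeR adjusted p = 0.00775). Fas, the receptor of Fas ligand and a classical starter of apoptosis, was at 2.06 and 2.49 CPM in the control libraries and at 4.52, 4.81 and 3.03 CPM in the OA-AP libraries. Its groups did not overlap either, but the log2 fold change of 0.86 (SE 0.33) had an adjusted p of 0.077 from edgeR and was not called. It was called with a log2 fold change of 0.99 without OA-AP replicate 3, the lowest of its group. Cd40, a costimulatory receptor of B cells and other antigen-presenting cells, had 2 and 3 counts in the controls, against 4, 3 and 0 in OA-AP. The scaled ratio of its counts was 0.545, with a 95% exact interval of 0.149 to 2.18. This ratio was 0.355 without OA-AP replicate 1 and 0.831 without OA-AP replicate 3.

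With 1 control library left out, most of the pancreas calls were lost while the fold changes stayed large. Without control replicate 1 or without control replicate 2, 1 member was called, Tnfrsf1a, and Tnfsf10, Tnfrsf10b, Tnfrsf12a and Ltbr lost the call, at edgeR adjusted p of 0.133, 0.16, 0.056 and 0.0921 without replicate 1 and 0.105, 0.0716, 0.051 and 0.0579 without replicate 2. Their log2 fold changes were then −2.87, 1.65, 3.70 and 0.92 without replicate 1, and −3.17, 2.69, 3.99 and 1.16 without replicate 2. The lone control was then assumed to vary like the OA-AP group, and the DEGs of all tested genes also decreased, to 1687 and 1495. Scaled by library totals alone, without TMM factors, the median of all genes moved from 0.04 to 0.75, 92.0% instead of 54.5% of the DEGs were higher in OA-AP, Tnfsf10 lost the call (log2 fold change −2.30, adjusted p = 0.0537 from edgeR) and Fas gained it (1.58).

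The cell-type markers of the pancreas moved with these values in part. The 6 neutrophil markers summed to 1.03 and 1.79 CPM in the control libraries and to 12.4, 3.38 and 97.3 CPM in the OA-AP libraries, with 0 of 5 tested called. The 6 macrophage markers, led by C1qb, summed to 43.9 and 24.1 CPM in the control group and to 34.0, 36.0 and 35.8 CPM in OA-AP, with Csf1r the 1 marker called, lower in OA-AP. The 6 lymphocyte markers summed to at most 1.12 CPM in any library, none of them at 0 in all libraries, and Ptprc, the common leukocyte antigen, was not called. OA-AP replicate 3 was the highest library for the neutrophil markers and for Tnfrsf1a, Tnfrsf12a, Tnfrsf10b and Ltbr, and the 4 receptors were also called without it. The 3 mesothelial markers, led by Upk3b, summed to 15.9 and 8.67 CPM in the control group and to 5.04, 7.61 and 0.471 CPM in OA-AP, lowest in replicate 3 as was Tnfsf10, with 0 of 3 tested called by edgeR. Of the 3 beta cell markers Iapp was called, higher in OA-AP (log2 fold change 0.68, edgeR adjusted p = 0.0183). Of the 4 endothelial markers Kdr was called, lower in OA-AP (−0.76, edgeR adjusted p = 0.0459). The part of all these markers and of the acinar markers, which fell, was not tested.

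**Figure D1:**
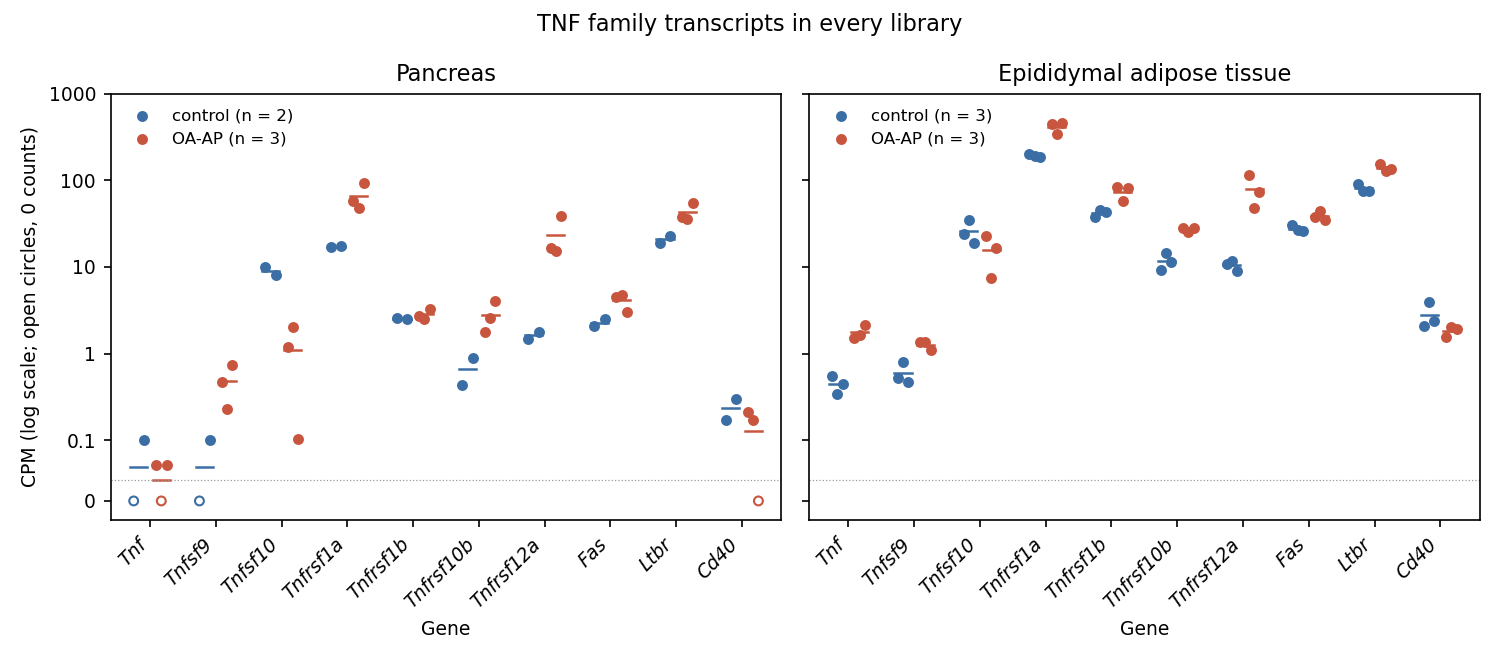
CPM of the 10 family members in each library of the pancreas (left) and of epididymal adipose tissue (right) on a log scale, with 1 point per library, a line at each group mean and open circles at 0 for libraries without a count. In the pancreas Tnfrsf12a lay at 1.46 and 1.79 CPM in the control libraries and at 15.1 to 38.3 CPM in OA-AP, and Tnfsf10 was lower in all 3 OA-AP libraries.

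In the epididymal adipose tissue the ligands Tnf and Tnfsf9 and the receptors Tnfrsf12a, Tnfrsf10b, Tnfrsf1a, Tnfrsf1b and Ltbr rose in OA-AP, and no member was called lower. All 10 members passed the filter, Tnf, with 8 counts in control replicate 2, through its OA-AP libraries, and 7 were DEGs, all higher, while 25.1% of the 15839 tested adipose genes were DEGs, 12.1% higher and 13.0% lower. The median log2 fold change of the 10 members was 0.95, against −0.01 over all tested genes. The groups of 9 members did not overlap, where 52.4% of all tested adipose genes had groups without overlap.

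Tnf stood at 0.554, 0.339 and 0.443 CPM in the adipose control libraries, from 15, 8 and 13 counts, and at 1.503, 1.63 and 2.12 CPM in the OA-AP libraries, from 29, 34 and 42 counts. All OA-AP libraries were above all controls, with a log2 fold change of 1.96 (SE 0.29, edgeR adjusted p = 0.00302). Tnfsf9 was at 0.517, 0.805 and 0.477 CPM in the control libraries and at 1.35, 1.35 and 1.11 CPM in the OA-AP libraries. The groups did not overlap, and the log2 fold change was 1.09 (SE 0.29, edgeR adjusted p = 0.0249). The call of Tnfsf9 was lost without control replicate 1 (log2 fold change 1.01), control replicate 3 (0.96), OA-AP replicate 1 (1.05) or OA-AP replicate 3 (1.18), at adjusted p between 0.0523 and 0.088 from edgeR. Tnfsf10 was at 24.1, 34.9 and 19.0 CPM in the control libraries and at 22.7, 7.45 and 16.6 CPM in the OA-AP libraries. These values overlapped, and the log2 fold change of −0.74 (SE 0.41, edgeR adjusted p = 0.195) was not called.

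Tnfrsf12a was at 10.8, 11.7 and 8.99 CPM in the adipose control libraries and at 115, 47.3 and 74.0 CPM in the OA-AP libraries. The lowest OA-AP library lay well above the highest control, and Tnfrsf12a again had the largest log2 fold change of the members, 2.91 (SE 0.33, edgeR adjusted p = 0.0016). Tnfrsf10b was at 9.23, 14.5 and 11.3 CPM in the control libraries and at 28.4, 25.4 and 27.9 CPM in the OA-AP libraries. The OA-AP libraries were close together and above all controls, with a log2 fold change of 1.22 (SE 0.17, edgeR adjusted p = 0.00236).

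Tnfrsf1a was at 202, 191 and 187 CPM in the adipose control libraries and at 449, 340.5 and 453 CPM in the OA-AP libraries. OA-AP replicate 2 was the lowest of its group and still above all controls, and the log2 fold change was 1.10 (SE 0.14, edgeR adjusted p = 0.00178). Tnfrsf1b was at 37.5, 45.9 and 42.9 CPM in the control libraries and at 83.4, 57.4 and 81.1 CPM in the OA-AP libraries. Here too OA-AP replicate 2 was the lowest and the groups were apart, with a log2 fold change of 0.81 (SE 0.16, edgeR adjusted p = 0.00792). Ltbr was at 91.0, 75.6 and 74.3 CPM in the control libraries and at 155, 126 and 136 CPM in the OA-AP libraries, and rose by 0.79 on the log2 scale (SE 0.12, edgeR adjusted p = 0.00349).

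Fas was at 30.2, 26.7 and 25.8 CPM in the adipose control libraries and at 37.4, 44.2 and 34.4 CPM in the OA-AP libraries. The groups did not overlap, and the adjusted p was 0.0184 from edgeR, but the log2 fold change of 0.49 (SE 0.12) lay below the 1.5-fold threshold. Cd40 was at 2.07, 3.90 and 2.35 CPM in the control libraries and at 1.56, 2.02 and 1.92 CPM in the OA-AP libraries. The controls were the higher group without overlap, control replicate 2 being the highest, and the log2 fold change of −0.59 (SE 0.30, edgeR adjusted p = 0.155) was not called.

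Neutrophil markers rose with the adipose members. The 6 of them, led by S100a9, summed to 6.79, 11.5 and 12.2 CPM in the control libraries and to 166, 169 and 183 CPM in the OA-AP libraries, and 5 of 5 tested were higher. Of the 6 macrophage markers, led by Mrc1, 2 were higher and 1 lower, with sums of 585, 804 and 584 CPM in the control group and 535, 764 and 920 CPM in OA-AP. The 6 lymphocyte markers, led by Cd79a, summed to 7.38, 36.8 and 11.1 CPM in the control libraries and to 1.97, 2.50 and 3.38 CPM in the OA-AP libraries, with 5 of 5 tested lower. Ptprc was at 36.1, 59.4 and 31.1 CPM in the control libraries and at 37.6, 27.2 and 49.8 CPM in the OA-AP libraries and was not called. The 5 fibroblast markers, led by Dcn, summed to 2658, 2397 and 2942 CPM in the control group and to 1413, 1741 and 1393 CPM in OA-AP, with 3 lower. Of all tested adipose genes, 12.1% were higher and 13.0% lower. Scarce markers can pass the low-count filter through the group where they are high, so nothing is read from these marker counts. The part of these cell types in the change of the members was not tested. The 7 member calls were kept without control replicate 2, the library with acinar RNA. With library totals alone the median of all adipose genes moved from −0.01 to −0.17 and the share of DEGs that were higher from 48.1% to 32.1%, and the same 7 members were called.

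**Figure D2:**
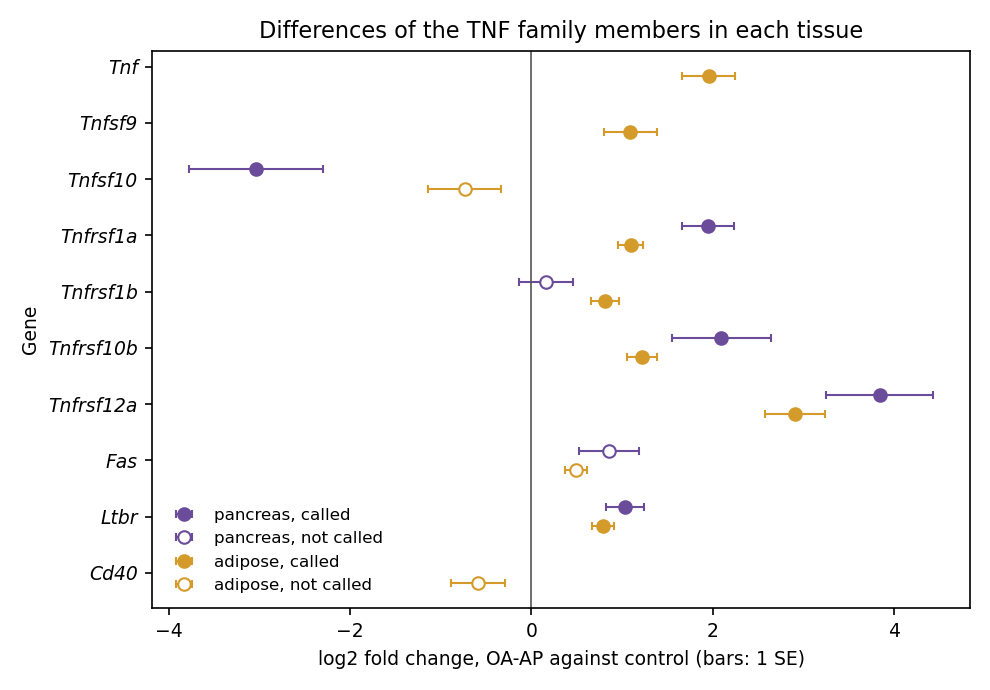
Log2 fold change of OA-AP against control for the 10 members in the pancreas and in adipose tissue, with bars of 1 standard error, filled points for DEGs and open points for members not called; Tnf, Tnfsf9 and Cd40 have no pancreas point because they did not pass the filter. The pancreas points range from −3.04 for Tnfsf10 to 3.84 for Tnfrsf12a, and the adipose points from −0.74 for Tnfsf10 to 2.91 for Tnfrsf12a.

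Whether a member changed differently in the tissues was tested with the tissue by condition term over all 11 libraries. By edgeR 0 of 10 members were called, while 21.3% of the 17046 genes in that fit were, and 3 members had an unadjusted p under 0.05. Tnf, Tnfsf9 and Cd40 entered this fit through their adipose counts, with at most 14 counts in any pancreas library, so the 0 of 10 is not set against that share. The 3 members with an unadjusted p under 0.05 were Tnfrsf1a, Tnfsf10 and Tnfrsf1b. The adipose minus pancreas difference in log2 fold change was −0.86 for Tnfrsf1a (SE 0.31, adjusted p = 0.0726), 2.30 for Tnfsf10 (SE 0.86, adjusted p = 0.0886) and 0.64 for Tnfrsf1b (SE 0.28, adjusted p = 0.127, all by edgeR). DESeq2 called 1 member, Tnfsf10 (2.31, adjusted p = 0.0448). Without pancreas OA-AP replicate 2, edgeR called Tnfsf10 (3.02) and Tnfrsf1a (−1.05), and without adipose OA-AP replicate 2 it called Tnfsf10 (2.57) and Tnfrsf1b (0.74). With library totals alone 6 members were called, and the differences of Tnfrsf1b and Cd40 turned to −0.20 and −0.59.

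The order of the members was compared per length. In the control pancreas Ltbr led with 8.85 CPM per kb ± 1.08 (SD, n = 2), followed by Tnfrsf1a with 6.59 ± 0.145, Tnfsf10 with 1.71 ± 0.252, Fas with 1.26 ± 0.17 and Tnfrsf12a with 0.842 ± 0.123 (CPM per kb, SD, n = 2). The sample ranges of these neighbours did not overlap, nor did that of Tnfrsf1b, next with 0.664 CPM per kb. Those of Tnfrsf10b, Cd40, Tnfsf9 and Tnf, at 0.122 down to 0.0304 CPM per kb, overlapped from each to the next. In the OA-AP pancreas Tnfrsf1a stood first with 25.4 ± 8.87, Ltbr next with 18.1 ± 4.29 and then Tnfrsf12a with 12.0 ± 6.77 CPM per kb (SD, n = 3), each overlapping the next. Fas followed with 2.29 ± 0.528 CPM per kb, apart from Tnfrsf12a above and from Tnfrsf1b below. Tnfrsf1b, Tnfrsf10b, Tnfsf9, Tnfsf10, Cd40 and Tnf filled the lower end, from 0.741 to 0.0213 CPM per kb, with each overlapping the next.

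In control adipose tissue Tnfrsf1a led with 74.7 ± 3.01 CPM per kb (SD, n = 3), ahead of Ltbr with 34.1 ± 3.95, Fas with 15.3 ± 1.29, Tnfrsf1b with 11.03 ± 1.11 and Tnfrsf12a with 5.45 ± 0.727 (CPM per kb, SD, n = 3), none overlapping the next among these. Tnfrsf12a and Tnfsf10 (4.93 CPM per kb) overlapped, as did Cd40 (0.814) and Tnfsf9 (0.465), and Tnfrsf10b lay apart between these pairs at 2.14 CPM per kb. Tnf was the lowest with 0.272 ± 0.0655 CPM per kb. In OA-AP adipose tissue Tnfrsf1a reached 160 ± 24.6 and stood apart from Ltbr with 59.1 ± 6.21, while Ltbr, Tnfrsf12a (40.8 ± 17.7), Fas (21.5 ± 2.80) and Tnfrsf1b (19.4 ± 3.77 CPM per kb, SD, n = 3) each overlapped the next of these 4. Tnfrsf10b (4.99 CPM per kb) and Tnfsf10 (2.96 CPM per kb) came next, each apart from its neighbours. Tnf, at 1.07 ± 0.199 CPM per kb, followed, overlapped Tnfsf9 (0.983) and lay above Cd40 (0.538 ± 0.0717 CPM per kb).

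The share of each receptor in the summed CPM per kb of the 7 receptors does not depend on how libraries are scaled. Tnfrsf12a made up 4.37% and 4.76% of this sum in the control pancreas libraries, against 16.8%, 17.2% and 24.3% in OA-AP. In adipose tissue it made up 3.71%, 4.26% and 3.40% of the sum in the controls, against 17.2%, 9.63% and 12.1% in OA-AP. Its share was thus higher in every OA-AP library of both tissues than in any control. Ltbr took 46.8% and 49.2% of the sum in the control pancreas and 32.0%, 33.4% and 28.2% in OA-AP, and in adipose tissue 25.6%, 22.5% and 23.1% in the control group and 19.0%, 21.1% and 18.2% in OA-AP. Tnfrsf1a took 35.9% ± 2.31 (SD, n = 2) in the control pancreas and 42.8% ± 1.63 (SD, n = 3) in OA-AP, against 52.0% ± 0.667 and 52.3% ± 2.68 (SD, n = 3 each) in adipose tissue. The adipose shares of Tnfrsf1a overlapped between the groups, and no share was tested.

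The receptors of TNF itself were also set against each other. Per length, Tnfrsf1a exceeded Tnfrsf1b 9.63-fold and 10.3-fold in the control pancreas libraries and 31.0-fold, 28.3-fold and 41.7-fold in the OA-AP libraries. The ratio was 7.94, 6.14 and 6.43 in the adipose control libraries and 7.93, 8.75 and 8.24 in the adipose OA-AP libraries. The pancreas groups were far apart, and the adipose groups overlapped at control replicate 1 and OA-AP replicate 1. This ratio was not tested.

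**Figure D3:**
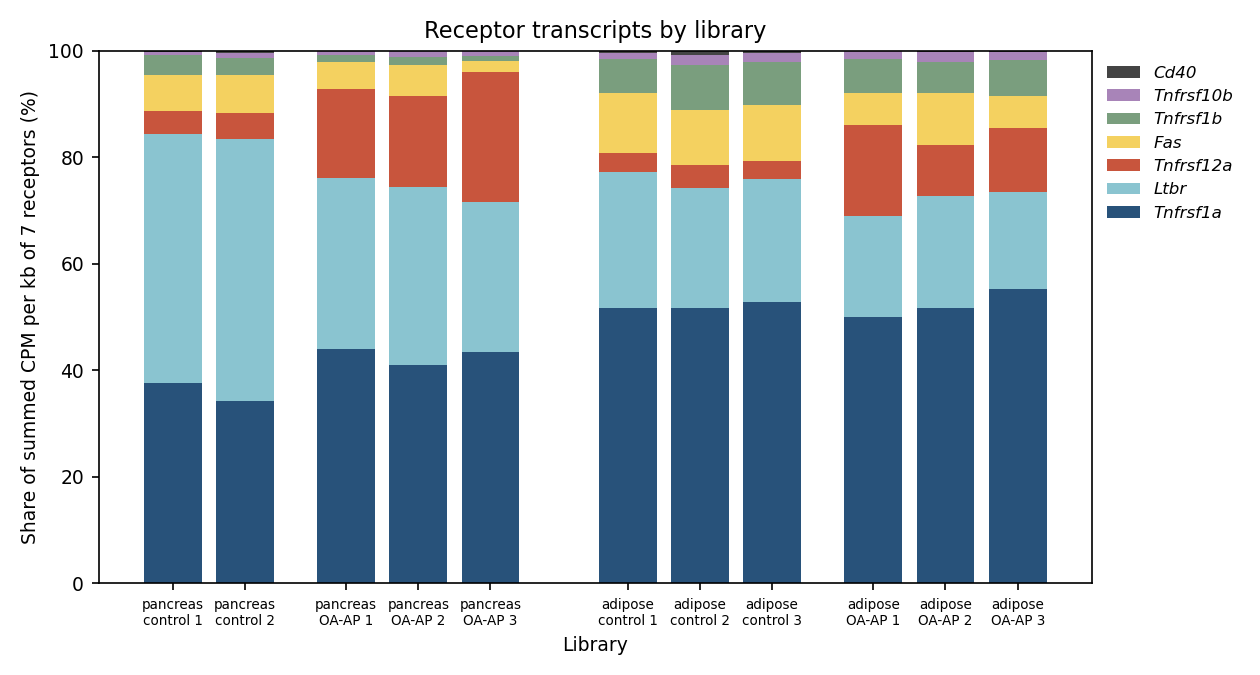
Share of each of the 7 receptors in their summed CPM per kb, as a percentage, with 1 stacked bar per library grouped by tissue and condition. Tnfrsf12a took 4.37% and 4.76% in the control pancreas and 16.8% to 24.3% in OA-AP, and 3.40% to 4.26% and 9.63% to 17.2% in adipose tissue.

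The wider superfamily was followed through 15 other ligands and 21 other receptors. In the pancreas 2 of these ligands passed the filter and 1 was higher, Eda, an ectodysplasin ligand of skin appendage development (log2 fold change 1.15, SE 0.26, edgeR adjusted p = 0.0125). Of the 6 other receptors tested in the pancreas 3 were higher and none lower, beside 29.8% of all tested pancreas genes called and 16.2% higher. Of these 3, Eda2r and Relt had 1 count in each control and passed the low-count filter through their OA-AP libraries, so the count is tilted upward and is not a measure of the list. Eda2r, a receptor for a splice form of ectodysplasin and a known p53 target, had 1 count in each control library, at 0.0858 and 0.0997 CPM, and stood at 9.35, 8.58 and 9.05 CPM in the OA-AP libraries. The OA-AP libraries were nearly level, and the scaled ratio of counts was 97.6 with a 95% exact interval of 26.9 to 808. Tnfrsf21, which encodes death receptor 6, rose from 3.26 and 3.09 CPM to 21.4, 19.2 and 30.6 CPM, a log2 fold change of 2.90 (SE 0.26, edgeR adjusted p = 0.00028). Relt, with 1 count in each control library, reached 0.525, 0.458 and 0.784 CPM in OA-AP, a ratio of 6.43 with a 95% exact interval of 1.64 to 55.3. Eda and Relt lost the call without control replicate 1 (adjusted p = 0.109 and 0.237 from edgeR) or control replicate 2 (0.085 and 0.208), and Relt also by DESeq2 (adjusted p = 0.119).

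In adipose tissue 6 of the other ligands were tested, with 1 higher and 1 lower. Tnfsf14, known as LIGHT and a ligand of Ltbr, rose from 0.627, 1.02 and 0.681 CPM to 5.18, 3.46 and 3.28 CPM, a log2 fold change of 2.36 (SE 0.30, edgeR adjusted p = 0.00184). Tnfsf13b, the B cell survival factor BAFF, fell from 3.32, 2.92 and 3.20 CPM to 2.18, 1.15 and 1.46 CPM (log2 fold change −0.98, adjusted p = 0.0258 from edgeR), a call lost without control replicate 1, 2 or 3 or OA-AP replicate 3, at adjusted p of 0.0769, 0.0506, 0.0761 and 0.0844. Of 19 other receptors tested, 4 were higher and 4 lower, with a median of 0.01 against −0.01 and with 25.1% of all tested adipose genes called. Of these 8, Tnfrsf9 passed the low-count filter through its OA-AP libraries, and Tnfrsf13c and Tnfrsf19 through the controls, so nothing is read from the count about the list. The 8 calls became 5 without control replicate 2, and also 5 without control replicate 3. Higher were Tnfrsf22, Tnfrsf23, Tnfrsf26 and Tnfrsf9, and lower were Tnfrsf14, Tnfrsf13c, Tnfrsf19 and Tnfrsf25. Tnfrsf14, a second receptor of LIGHT, fell from 6.27, 6.27 and 5.41 CPM to 3.11, 2.74 and 2.68 CPM (log2 fold change −1.07, SE 0.17, edgeR adjusted p = 0.00357). Tnfrsf22, Tnfrsf23 and Tnfrsf26 are close copies of each other, so their log2 fold changes of 0.75, 1.18 and 1.12 are uncertain. Tnfrsf13c, the BAFF receptor of B cells, was at 0.517, 1.31 and 0.443 CPM in the control libraries and at 0.104, 0.0481 and 0.303 CPM in OA-AP. The lymphocyte markers fell in the same libraries, and their part was not tested.

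Of 26 receptor-proximal adaptors and regulators, 24 were tested in the pancreas and 5 were higher, with a median of 0.29 against 0.04 for all tested genes. Their share of DEGs was 20.8%, against 29.8% of all tested pancreas genes. The count of 5 became 3 without control replicate 1, control replicate 2 or OA-AP replicate 1, 19 with library totals alone and 10 without the low-count filter, so nothing is read from this share. Birc3, a ubiquitin ligase of the TNF receptor 1 complex, rose by 2.25 on the log2 scale (SE 0.19, adjusted p = 0.000238) and Traf4 by 1.44 (SE 0.22, adjusted p = 0.00215, both by edgeR). Ripk1, the kinase recruited to that complex, rose by 1.21 (SE 0.19, edgeR adjusted p = 0.00229). Tab1, a partner of the kinase TAK1, rose by 0.75 (adjusted p = 0.011 from edgeR) and lost the call without control replicate 1, control replicate 2 or OA-AP replicate 1, at adjusted p of 0.101, 0.0736 and 0.0559. In adipose tissue 4 of 26 were higher and 1 lower, a share of 19.2% against 25.1% of all tested genes, with a median of 0.09 against −0.01. Ripk1 rose by 0.69, Traf3 by 0.71 and the initiator caspase gene Casp8 by 0.83 (SEs 0.08, 0.11 and 0.14, adjusted p = 0.00139, 0.00365 and 0.00488 from edgeR). Tab3 fell from 54.4, 50.3 and 65.9 CPM to 22.6, 18.3 and 21.5 CPM, a log2 fold change of −1.45 (SE 0.13, edgeR adjusted p = 0.000682). With library totals alone, Ripk1 and Traf3 were below the 1.5-fold threshold in adipose tissue, at 0.54 and 0.56. The adipose count of 5 then became 2.

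Of 12 genes that shed TNF family proteins or control the stability of Tnf mRNA, 8 were higher in the pancreas and none lower, 66.7% against 29.8% of all tested genes, with a median of 0.79 against 0.04. The count was 3 without control replicate 1 and 1 without control replicate 2. This list was chosen with earlier results of these data known, so nothing is read from its share or median. Rhbdf2, the iRhom2 partner of the TNF sheddase Adam17, rose from 7.89 and 6.38 CPM to 40.6, 29.4 and 73.2 CPM, a log2 fold change of 2.74 (SE 0.44, edgeR adjusted p = 0.0056). Rhbdf1 rose by 0.79, Rc3h1, which encodes the mRNA decay factor roquin, by 1.75, and Zfp36l1, of the tristetraprolin family, by 1.33 (adjusted p = 0.00558, 0.00106 and 0.0091 from edgeR). Without control replicate 1, Zfp36l1 lost the call (adjusted p = 0.0818), and without control replicate 2 Rhbdf1, Rhbdf2 and Zfp36l1 lost it (adjusted p = 0.0826, 0.0615 and 0.088, all from edgeR). In adipose tissue 3 of 12 were higher, a share at the background of 25.1%, with a median of 0.30 against −0.01. Without OA-AP replicate 2, 5 were called. Zc3h12a, which encodes the mRNA endonuclease regnase-1, rose from 15.3, 17.4 and 16.9 CPM to 58.9, 44.2 and 52.3 CPM, a log2 fold change of 1.65 (SE 0.13, edgeR adjusted p = 0.000402). Zfp36l1 rose by 1.15 and Zfp36, which encodes tristetraprolin, by 0.99 (adjusted p = 0.0012 and 0.00696 from edgeR).

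Of 30 genes that TNF is known to induce, 25 were tested in the pancreas and 9 were higher and none lower, 36.0% against the background of 29.8%. The count was 2 without control replicate 1 and 2 without control replicate 2. Cxcl1, Cxcl2, Ccl2, Ccl7, Il6 and Lif, with at most 3 counts in either control, passed the low-count filter through their OA-AP libraries. So did Bcl3, Relb, Fos, Mmp9 and Nfkbie, with at most 9 counts in either control. Of these genes Ccl7, Bcl3, Relb and Fos were called, so nothing is read from the count of 9 about the list. Junb, an AP-1 subunit, rose from 3.78 and 3.99 CPM to 79.3, 90.9 and 184 CPM, a log2 fold change of 4.93 (SE 0.49, edgeR adjusted p = 0.00106). Bcl3, a nuclear IκB protein, rose by 3.82 (SE 0.49, edgeR adjusted p = 0.00125), a value that rests on 7 and 6 control counts. Tnip1, a partner of the deubiquitinase A20, rose by 1.95 (SE 0.36, edgeR adjusted p = 0.00584). The monocyte chemokine Ccl7 had 1 and 0 counts in the control libraries and 29, 28 and 99 in OA-AP, a scaled ratio of 60.8 with a 95% exact interval of 10.8 to 2416. The ratio was 33.8 without OA-AP replicate 3 and 32.7 without control replicate 2, while without control replicate 1 no control count was left. Without control replicate 1 or 2 Tnip1 lost the call (adjusted p = 0.0665 and 0.0715), as did Ccl7 (0.064 and 0.0856, from edgeR). In adipose tissue 21 of 28 tested targets were higher and none lower, 75.0% against 25.1% of all tested genes, with a median of 1.85 against −0.01. Il6 and Sele, with 2, 6 and 4 and with 5, 10 and 14 control counts, passed the low-count filter through their OA-AP libraries, which tilts both values upward. The list was also chosen with earlier results of these data known, so nothing is read from its share or median. Socs3, a feedback inhibitor of cytokine signalling, rose by 3.87 (SE 0.17, adjusted p = 0.000179) and the mitochondrial superoxide dismutase gene Sod2 by 2.14 (SE 0.14, adjusted p = 0.000253, both by edgeR). Junb rose by 2.45 and Bcl3 by 3.04 (SEs 0.18 and 0.24, adjusted p = 0.000347 and 0.000524 from edgeR). These genes answer to many other stimuli as well. The 6 neutrophil markers, with S100a9 the most abundant, rose in the same adipose libraries. Their sums were 6.79 to 12.2 CPM in the control libraries and 166 to 183 CPM in the OA-AP libraries. Of these markers 5 of 5 tested were higher, beside 12.1% of all tested adipose genes, and nothing is read from that count. The part of these markers was not tested.

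Over all these lists together, 26 of 69 tested pancreas genes (37.7%, against 29.8% of all tested genes) and 39 of 91 tested adipose genes (42.9%, against 25.1%) were DEGs. The called low-count genes named above are among them, with Bcl3, Relb and Fos in the pancreas, so nothing is read from these shares. The pancreas count was 10 without control replicate 1, 8 without control replicate 2, and 49 with library totals alone. Without pancreas OA-AP replicate 3 it was 25, and without adipose control replicate 2 the adipose count was 34.

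The genes most like 2 members were sought by Pearson correlation of log2 CPM, centred within each tissue, over the 11 libraries and 8062 genes. For Tnfrsf1a, the member with the smallest p-value in the pancreas, these were Ube2n (r = 0.995), Grpel1 (0.994) and Actr1b (0.994). For Tnfrsf12a, with the smallest in adipose tissue, they were Myd88 (0.993), Plaa (0.993) and Bcl3 (0.992). The libraries share their group labels in such a correlation, so r is a description of these libraries.

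On the GRCm38 genome, 3 members lie on chromosome 17, Tnf (ENSMUSG00000024401, 35199381 to 35202007), Tnfrsf12a (ENSMUSG00000023905, 23675445 to 23677468) and Tnfsf9 (ENSMUSG00000035678, 57105325 to 57107757). Ltbr (ENSMUSG00000030339, 125306571 to 125313885) and Tnfrsf1a (ENSMUSG00000030341, 125349362 to 125362484) lie 35476 bases apart on chromosome 6. The others are Cd40 on chromosome 2 (ENSMUSG00000017652, 165055627 to 165072948), Tnfsf10 on 3 (ENSMUSG00000039304, 27317028 to 27342427), Tnfrsf1b on 4 (ENSMUSG00000028599, 145213463 to 145246870), Tnfrsf10b on 14 (ENSMUSG00000022074, 69767472 to 69784411) and Fas on 19 (ENSMUSG00000024778, 34290659 to 34327770). All 10 are protein-coding. Lta, the lymphotoxin alpha gene 1157 bases from Tnf, had 6, 6 and 10 counts in the adipose controls, against 3, 2 and 0 in OA-AP, too few to be tested. In GENCODE M21, Tnfsf9 overlaps the antisense long noncoding gene Gm11110, which had 1 to 6 counts in the pancreas libraries and 1 to 13 in the adipose libraries. The strand setting of the counting is not given in the sources used here, so reads of Gm11110 and Tnfsf9 may not be separable and the Tnfsf9 values are uncertain. Fas overlaps the small RNA gene Gm27818, which had at most 2 counts in any library.

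Since several members rose together, the 250 bases before the RefSeq start were searched on both strands in the 7 members with an entry, Tnf, Tnfsf10, Tnfrsf1a, Tnfrsf1b, Tnfrsf12a, Fas and Ltbr. The searched motifs were the κB consensus, by its name alone, the AP-1 motif TGANTCA and the STAT motif TTCNNNGAA. Of 32851 RefSeq promoters with the same window, 7.25% held the κB consensus, 6.75% the AP-1 motif and 7.02% the STAT motif. The κB consensus was found in 0 of the 7, the AP-1 motif in Fas, and the STAT motif in Tnfrsf1a, Tnfrsf1b and Fas. These matches are descriptions of the letters in this window. The window of Tnfrsf1a, with its match, lies wholly inside the annotated gene and is not printed. Printed here are the windows of Fas and Tnfrsf1b, which hold matches, and that of Tnfrsf12a, the member with the largest fold change in both tissues, shortened by 19 bases to the bases outside the annotated gene. Capitals mark motif matches in these RefSeq sequences of GRCm38.p6, written 5′ to 3′ on the strand of the gene.
Fas, chr19:34290409-34290658, plus strand: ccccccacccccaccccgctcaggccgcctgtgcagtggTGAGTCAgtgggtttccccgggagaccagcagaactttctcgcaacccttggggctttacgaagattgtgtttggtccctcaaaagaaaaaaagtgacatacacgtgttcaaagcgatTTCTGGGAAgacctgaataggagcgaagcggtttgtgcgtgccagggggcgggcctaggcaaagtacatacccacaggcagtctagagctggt
Tnfrsf1b, chr4:145246871-145247120, minus strand: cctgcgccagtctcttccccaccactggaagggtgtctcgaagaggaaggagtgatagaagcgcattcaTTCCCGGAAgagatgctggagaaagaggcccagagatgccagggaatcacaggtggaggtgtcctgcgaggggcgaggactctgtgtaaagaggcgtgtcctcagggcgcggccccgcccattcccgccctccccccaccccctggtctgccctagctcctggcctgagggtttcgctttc
Tnfrsf12a, chr17:23677469-23677699, minus strand: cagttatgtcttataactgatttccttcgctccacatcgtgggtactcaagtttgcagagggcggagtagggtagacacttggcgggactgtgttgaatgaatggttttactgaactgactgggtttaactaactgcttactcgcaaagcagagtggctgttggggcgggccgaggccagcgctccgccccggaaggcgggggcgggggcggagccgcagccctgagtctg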

How the data were processed

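Counts of 11 libraries were analysed, grouped by their labels. The authors deposited whole-number counts per gene on GRCm38, for which the submitters' processing notes list Trim Galore 0.6.6, fastp 0.20.1, STAR and featureCounts 2.0.1. Their annotation release and strand setting are not given in the sources used here. The pancreas table also holds another deposited column, the gene length given by the authors, which was used for CPM per kb in both tissues and in no test.

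In R 4.3.3, genes were filtered with filterByExpr, scaled with TMM factors and tested in each tissue with edgeR 4.0.16 (robust quasi-likelihood test, Benjamini-Hochberg adjustment over all tested genes). The tissue by condition term was tested over both tissues at an adjusted p under 0.05. Each standard error (SE) was derived from the fitted log2 fold change, as its absolute value over the root of F. For genes with at most 3 counts in each library of either group, a ratio of summed counts is given with its exact binomial interval, which covers counting error only. Alternatives were DESeq2 1.42.0, its size factors, library totals alone, factors without acinar markers or within each tissue, no filter or 10 counts in every sample, a fold of 2 or none, a replicate block and each library left out. Replicates varied beyond counting error (chi-square over its degrees of freedom at least 6.91). The test was tested on simulated data.

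Members and lists were chosen with earlier results of these data known. Named genes were the 10 members, up to 4 DEGs with the smallest p per list and tissue, further DEGs among the other ligands and receptors, and 3 genes most like a member; genes named for their position next to or across a member, and cell-type markers, are additional.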

Additional observations from a re-analysis of the deposited data

Results flagged for a closer look

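The change differed between the tissues, by edgeR's tissue by condition test with Benjamini-Hochberg adjustment, for 14 of the 29 other named genes, where 21.3% of all genes in that fit were called. These genes were named for a small p in 1 tissue, which favours a difference between tissues, so this count is no result about the lists. Given as the adipose minus the pancreas log2 fold change, it was lower in adipose tissue for the receptors Eda2r (−6.11, adjusted p = 3.03e-05) and Tnfrsf21 (−2.82, adjusted p = 0.000173) and for the ligand Eda (−1.45, adjusted p = 0.0389). The value of Eda2r rests on 1 count in each pancreas control, where the ratio of counts of OA-AP to control has a 95% exact interval of 26.9 to 808, so its size is uncertain. Eda2r was at 2.92, 3.39 and 3.85 CPM in the adipose control libraries and at 4.302, 3.89 and 5.96 CPM in the adipose OA-AP libraries, and Tnfrsf21 was at 14.8, 12.5 and 11.6 CPM against 11.1, 15.0 and 15.1 CPM. Neither was called in adipose tissue. Of the adaptors, the difference was −2.15 for Tab3, −1.64 for Birc3, −1.75 for Traf4, −1.08 for Tab1 and −0.54 for Ripk1 and 0.98 for Traf3. Of the shedding and mRNA control genes it was −1.58 for Rc3h1, −2.44 for Rhbdf2 and −2.28 for Zfp36, and of the targets −2.49 for Junb and 2.29 for Sod2. Sod2 was at 21.8 and 25.7 CPM in the control pancreas and at 19.4, 16.8 and 27.1 CPM in the OA-AP pancreas. Of these calls 4 were not stable when each of the 11 libraries was left out. That of Ripk1 was lost for 9 of them, all but pancreas control replicate 2 and pancreas OA-AP replicate 2, and that of Eda for 8, all but pancreas OA-AP replicate 2, adipose control replicate 3 and adipose OA-AP replicate 2. That of Traf3 was lost for 3, pancreas control replicate 1, adipose control replicate 3 and adipose OA-AP replicate 3, and that of Zfp36 for 2, pancreas control replicates 1 and 2. Without pancreas control replicate 1 the edgeR adjusted p was 0.14 for Eda, 0.235 for Ripk1, 0.0890 for Traf3 and 0.0791 for Zfp36, and without the low-count filter it was 0.118 for Ripk1 and 0.0703 for Zfp36. With library totals alone the difference of Traf3 was 0.15.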

How the results depend on the processing

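With 2 control libraries in the pancreas, calls of members there were the least stable, and Tnf, Tnfsf9 and Cd40 had too few counts to test. With library totals alone 6349 genes were called in the pancreas and 49 in the lists around the members, and 6 members differed between tissues, against 1 by DESeq2. A filter of 10 counts in every sample left 3 called pancreas members, since Tnfsf10 and Tnfrsf10b then were not tested, and 6 adipose members, without Tnf, and a fold of 2 left 2464 pancreas and 2228 adipose genes. Leaving out each library gave 1 to 6 called members and 1495 to 4265 called genes in the pancreas, 8 to 30 in its lists, and 0 to 2 members that differed between tissues. The adipose minus pancreas difference turned under library totals for Tnfrsf1b (−0.20) and Cd40 (−0.59), neither called; the cause was not tested. Over the libraries left out it ranged for Tnf from −2.25 to 3.36 and for Cd40 from −0.33 to 0.86, values that rest on at most 1 and 4 pancreas counts in a library and are no results. With same-numbered samples as a replicate block, 6 members were called in the pancreas (Fas added, log2 fold change 1.04, adjusted p = 0.0187 from edgeR), 7 in adipose tissue and 0 between tissues, and among all genes 2156 instead of 3636 differed between tissues, with Ripk1, Traf3 and Zfp36 not called. The labels do not say that the numbers pair the samples; correlations of same-numbered deviations lay between −0.16 and 0.13, and 0 of 3 adipose OA-AP libraries correlated best with the control of their number. Of the comparisons of single genes with an alternative, 918 kept direction and call, 65 lost the call, 14 gained it and 5 turned.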
